A study of Canis lupus familiaris with 15 samples.

Results

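Axon guidance ligands and receptors were examined in canine osteosarcoma cell lines. Members were chosen by symbol from the semaphorin, plexin, neuropilin, ephrin, Eph receptor, Slit, Robo, netrin, UNC5, DCC and Slitrk families, wherever a gene of that name stood in at least 1 of 3 deposited tables of genes that the authors had called different between groups of libraries. In all, 40 members were found among 7698 listed genes. The table of D17 cells held 17 members of 4412 genes, that of HMPOS cells 12 of 1189, and that of HMPOS against POS cells 29 of 5746.

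RNA sequencing of poly(A) RNA covered 15 libraries in 5 groups, with 3 libraries a group. All groups were dog osteosarcoma lines without a stated genetic change or drug treatment. The extravasation-positive D17 and HMPOS cells, called extravasated here, were sub-lines: fluorescently marked cells were put into the blood of Tg(fli1a:EGFP) zebrafish embryos, whose vessels glow green, and clusters that had left the vessels were dissected out and expanded in culture. The parental D17, HMPOS and POS cells were the original lines kept in culture, and HMPOS was derived from POS as a strongly metastatic sub-line. The parental cells had not been through an embryo, so leaving a vessel, life in the fish, isolation and regrowth cannot be told apart in these comparisons.

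Axon guidance proteins steer migrating cells and growing nerve fibres by attraction or repulsion. Semaphorins act through plexins, with neuropilins as co-receptors of the secreted class; ephrins on a cell surface bind Eph receptors on the neighbouring cell; Slits bind Robo receptors; and netrins bind DCC and UNC5 receptors. Many of them also work in blood vessels and in bone, where semaphorin 3A and the pair of ephrin-B2 and EphB4 take part in the exchange between osteoblasts and osteoclasts.

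Expression was read as FPKM, a count of sequenced fragments corrected for gene length and library size, which lets levels of different genes be set side by side. Each group had a single FPKM value per gene that pools its 3 libraries. No spread between libraries and no depth could be read from these values. Beyond the authors' own call of each listed gene, no difference below therefore has a replicate check or a test. The tables held called genes alone, and a member that is not listed has no value here and was not read as 0. The groups were matched to value columns through their names, which call parental cells norm and the others meta. The reading of norm as parental rests on the POS cells, which have parental libraries alone and carry the name norm; with the names exchanged, every direction between extravasated and parental cells would turn, and the HMPOS values set against POS, which carry the name norm as well, would be those of the extravasated sub-line. The article gives more genes down than up in extravasated cells of both lines. With norm read as parental, more listed genes were higher in them, 2390 of 4412 in D17 and 797 of 1189 in HMPOS. The article's counts of genes down lie close to these counts of higher genes, so its directions appear opposite to those given here. The authors' own fold change is parental over extravasated by the column names, so the article's counts do not settle the reading. Those directions, and the naming of the HMPOS group set against POS, are therefore provisional.

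Of 77 protein-coding dog genes annotated under these names, the 40 listed members made up 51.95%, against 34.75% of 21175 protein-coding symbols in all. Both neuropilins were listed, as were 14 of 20 semaphorins, 2 of 3 Slits, 3 of 5 genes of the UNC5 and DCC class, 5 of 9 plexins and 2 of 4 Robo receptors. Listing was sparser for Eph receptors with 6 of 14, ephrins with 3 of 8, netrins with 2 of 6 and Slitrks with 1 of 6. DCC itself, the receptor through which netrins attract, was in none of the 3 tables. Members were listed in the D17 table at 22.08% against 19.98% of all symbols, in the HMPOS table at 15.58% against 5.374%, and in the table of HMPOS against POS at 37.66% against 25.94%.

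**Figure D1:**
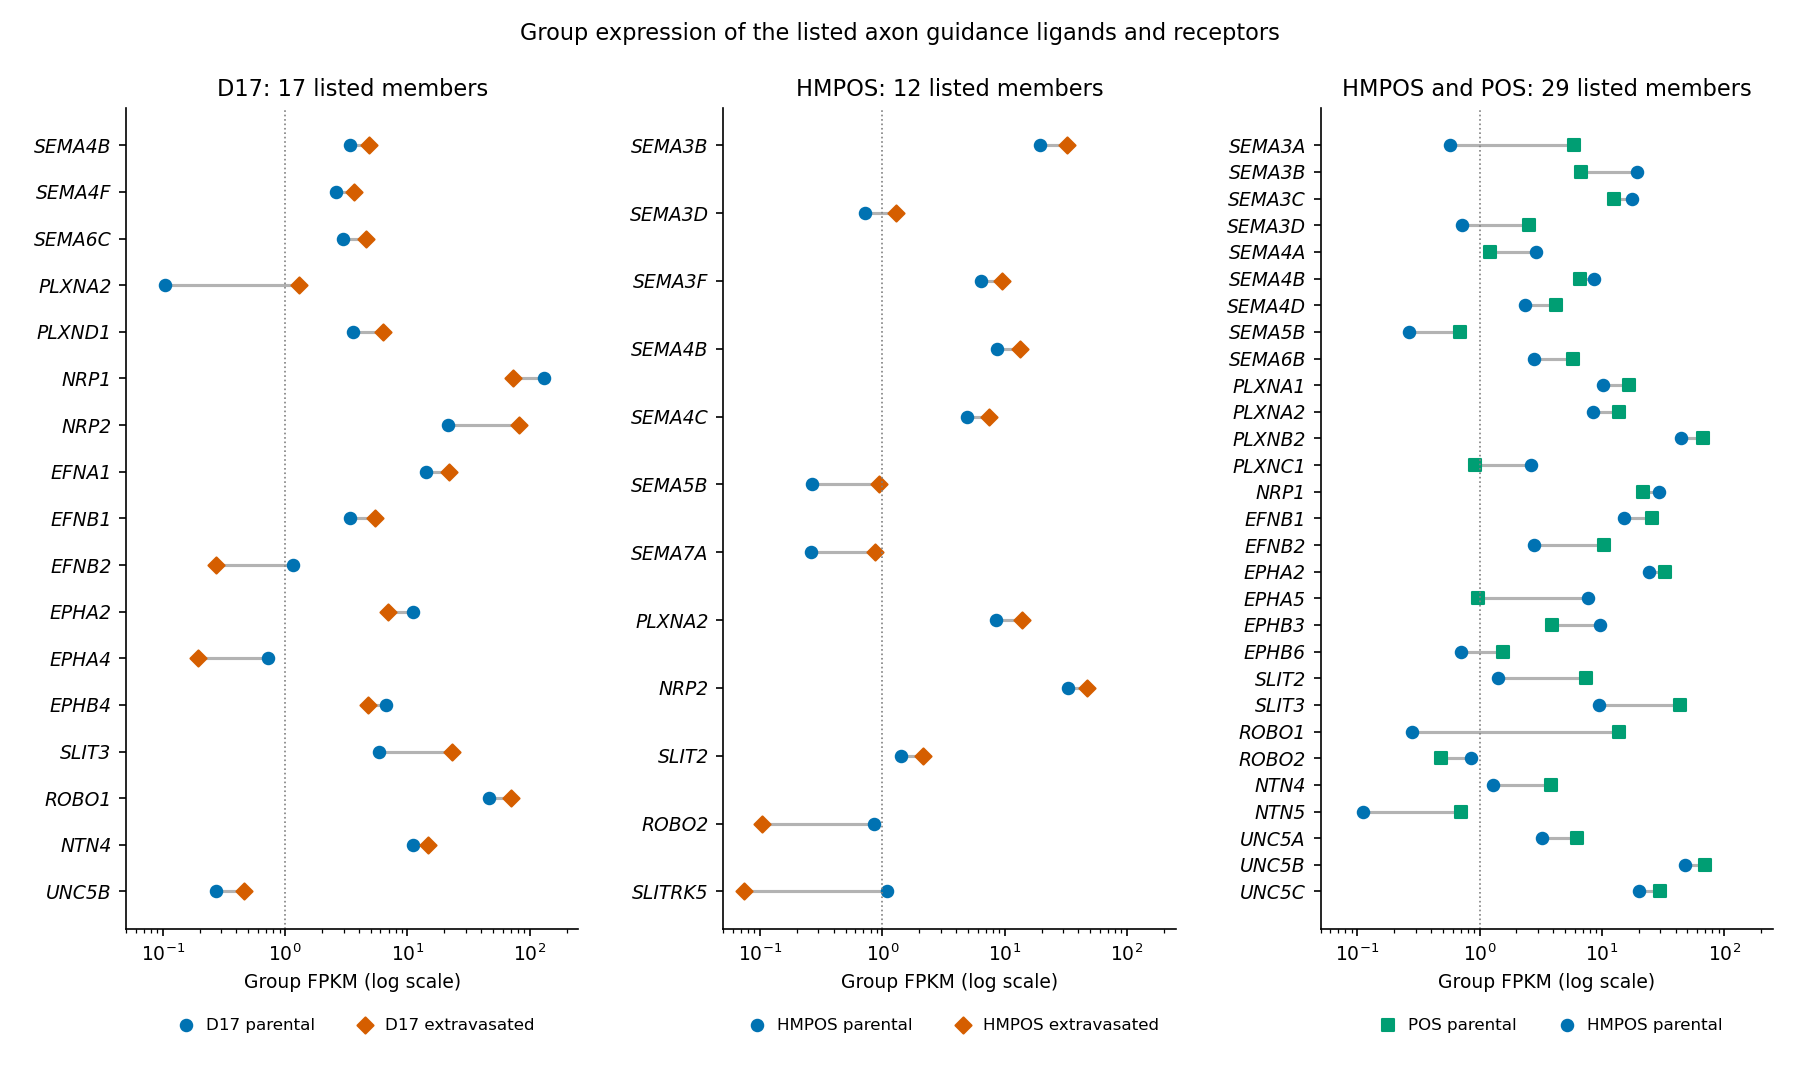
Group FPKM on a log axis for each listed member in the tables of D17, HMPOS, and HMPOS against POS cells, ordered by class. Each marker is a pooled group value (circles, parental D17 or HMPOS; diamonds, extravasated; squares, parental POS), the grey bar joins the groups of a gene, and the dotted line stands at 1 FPKM; NRP1 in parental D17 cells at 130.8 FPKM is the highest value, and the longest bar, ROBO1, runs from 13.8 FPKM in POS to 0.279 FPKM in HMPOS cells.

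The comparison of extravasated with parental D17 cells asked which genes differ in cells that had left the circulation. SLIT3, NRP2 and PLXNA2 were higher past 2-fold in extravasated D17 cells, and EFNB2 and EPHA4 were lower past 2-fold. The 3 higher members are 17.6% of the 17 listed, close to the 18.3% of all listed genes. The 2 lower members are 11.8%, against 8.5% of all listed genes. Without a fold limit, 12 of 17 members (70.6%) were higher, where 54.2% of all listed genes were. The median log2 ratio was 0.60 over the members and 0.39 over all listed genes, and the median size of the ratio in either direction was 0.68 for both. In bulk RNA, fewer cells that express a gene and less RNA per cell cannot be told apart.

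All listed genes together leaned upwards in both extravasated lines, by a median log2 ratio of 0.39 in D17 and 0.58 in HMPOS cells, and downwards in HMPOS against POS by -0.31. Listed genes had passed a test, so that median is not a neutral reference. Set against it, the split of D17 members past 2-fold became 3 higher and 4 lower, since EPHA2 and NRP1 then passed the limit, and no D17 member changed direction.

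Among the ligands, 7 of 8 were higher in extravasated D17 cells, where 54.2% of all listed genes were. SLIT3, a secreted repellent and vessel growth factor that binds Robo receptors, was at 23.1 FPKM in extravasated against 5.84 FPKM in parental D17 cells, 3.96-fold higher. Its receptor ROBO1, the only listed Robo gene in this table, was already abundant at 46.4 FPKM in parental cells and stood at 70.5 FPKM in extravasated cells. The ligand thus differed more than the receptor, and the level of SLIT3 relative to ROBO1 was 0.328 in extravasated against 0.126 in parental cells.

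Ephrins were split in D17 cells. EFNA1, the membrane-anchored ligand of EphA receptors, had the highest ephrin level, 21.9 FPKM in extravasated against 14.3 FPKM in parental cells. EFNB2, a transmembrane ephrin of arteries and of bone remodelling, was at 0.274 FPKM in extravasated against 1.17 FPKM in parental cells, 4.25-fold lower. By size of ratio EFNB2 ranked 21st among 2019 lower genes, with genes at 0 in a group left out of the ranking. With 1 FPKM added to both groups, however, its log2 ratio was -0.77, short of 2-fold. EFNB1 was 1.58-fold higher. EFNB2 was also the only ligand lower in this table, while the summed level of the 3 ephrins was 27.6 FPKM in extravasated against 18.9 FPKM in parental cells.

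All 3 listed Eph receptors were lower in extravasated D17 cells, where 54.2% of all listed genes were higher. EPHA2, a receptor of ephrin-A1 that is common on tumour cells, had the highest level of the class, 6.94 FPKM against 11.1 FPKM in parental cells. EPHA4, which binds ephrins of both the A and B types, was at 0.194 FPKM against 0.721 FPKM, 3.71-fold lower, so both of its values were under 1 FPKM, and it too fell short of 2-fold with 1 FPKM added. EPHB4, the usual receptor of ephrin-B2, was at 4.75 FPKM against 6.65 FPKM. The EFNA1 level relative to EPHA2 was 3.16 in extravasated and 1.29 in parental D17 cells, so this ligand and receptor moved apart.

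The neuropilins went in opposite directions. NRP1, a co-receptor of semaphorin 3A and of VEGF, was at 72.4 FPKM in extravasated against 130.8 FPKM in parental D17 cells, 1.81-fold lower. NRP2, which favours semaphorin 3F and the lymphatic VEGF ligands, was at 82.1 FPKM in extravasated against 21.6 FPKM in parental cells, 3.81-fold higher. Together they came to 154.5 FPKM in extravasated against 152.3 FPKM in parental cells, so the sum barely differed while the makeup did. Parental D17 cells held 0.165 parts of NRP2 for each part of NRP1, and extravasated cells 1.13 parts.

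Plexins carry the semaphorin signal into the cell, and both listed plexins were higher in extravasated D17 cells, where 54.2% of all listed genes were. PLXNA2 had the greatest ratio of any member in this table, 1.29 FPKM in extravasated against 0.104 FPKM in parental cells, 12.4-fold higher. It ranked 34th among 2385 higher genes, with genes at 0 in a group left out of the ranking. PLXND1, a semaphorin 3E receptor of vessels and the more abundant of the pair, was at 6.29 FPKM against 3.57 FPKM. Because parental PLXNA2 was near 0.1 FPKM, its fold depends on the low value: with 1 FPKM added to both groups its log2 ratio was 1.05 in place of 3.63.

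The listed semaphorins of D17 cells, SEMA4B, SEMA4F and SEMA6C, are all membrane-bound. All 3 were higher in extravasated cells, where 54.2% of all listed genes were. SEMA4B had the highest level with 4.81 FPKM in extravasated against 3.38 FPKM in parental cells, and folds in the class lay between 1.42 and 1.56. No secreted class 3 semaphorin was listed in D17, although both of their neuropilin co-receptors were. The netrin NTN4, a basement membrane netrin, was at 14.8 FPKM against 11.2 FPKM, and the netrin receptor gene UNC5B was low in both groups, 0.457 FPKM against 0.272 FPKM. For NTN4 the higher value in extravasated cells nearly vanished against the median of all listed genes, with a log2 ratio of 0.02. On that scale SEMA4B and SEMA4F stood at 0.12 and SEMA6C at 0.26.

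**Figure D2:**
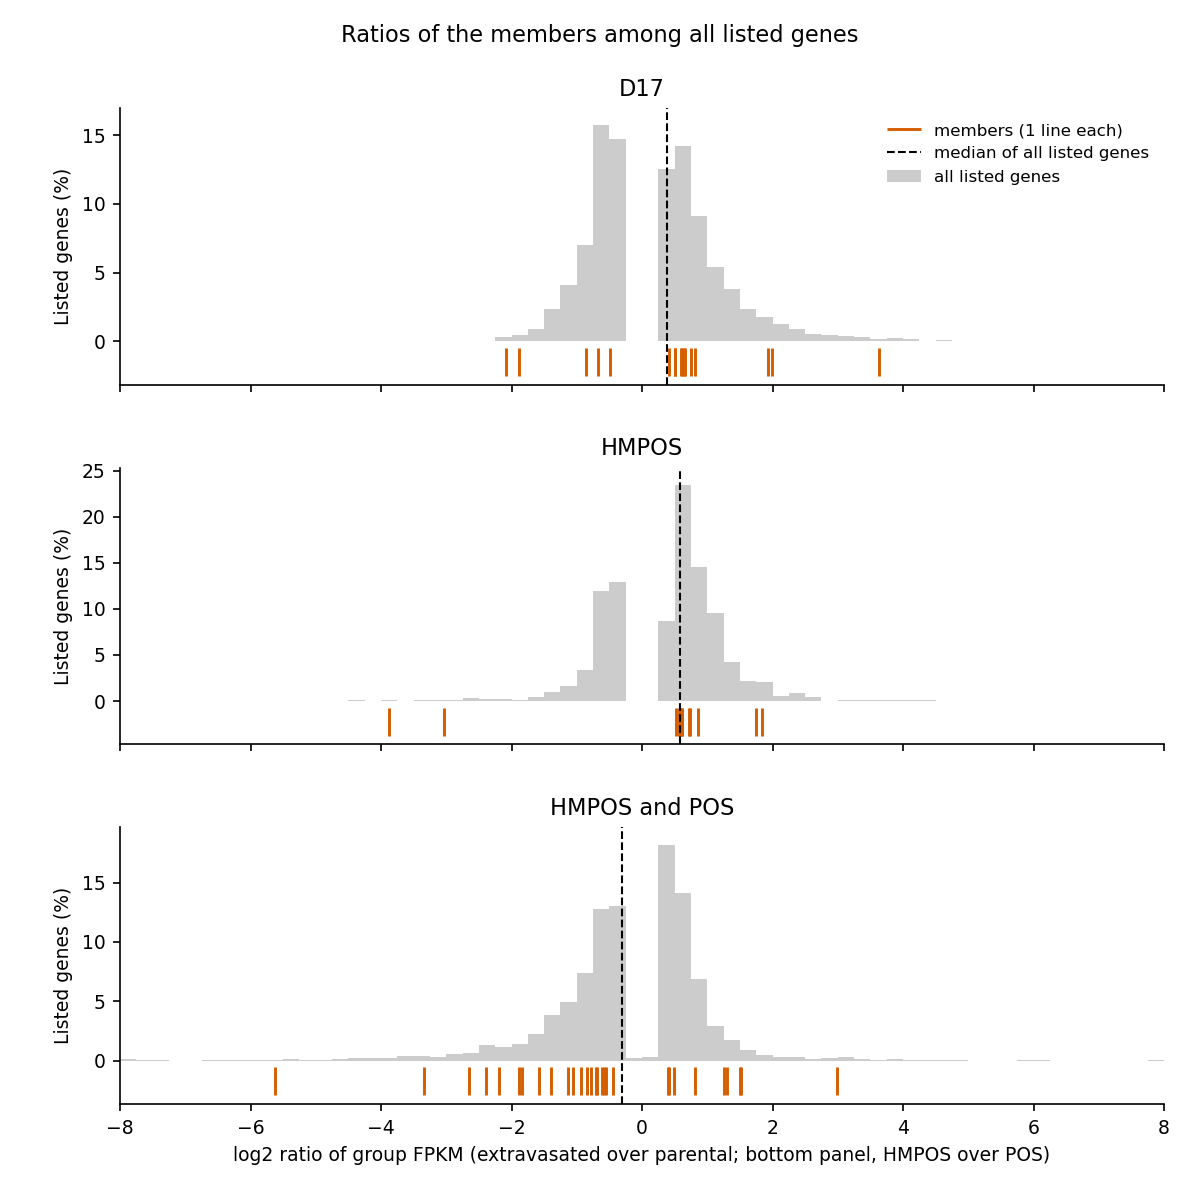
Share of all listed genes by log2 ratio of group FPKM (grey bars, bins of 0.25 with ratios past either end counted in the end bins; genes with a 0 left out), with 1 orange line per member and a dashed line at the median of all listed genes. Members spread over both sides in D17, lie near the median in HMPOS apart from 2 far to the left and 2 to the right, and lie mostly left of the median in HMPOS against POS.

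All 7 listed semaphorins were higher in extravasated than in parental HMPOS cells, 2 of them, SEMA5B and SEMA7A, past 2-fold, but set against the median of all listed genes SEMA3F and SEMA4C turned to log2 ratios of -0.02 and -0.001. ROBO2 and SLITRK5 were lower past 2-fold, and these were also the only members lower at any fold. The 2 higher members past 2-fold are 16.7% of 12, against 20.5% of all listed genes, and the 2 lower ones are 16.7%, against 4.79%. At any fold, 10 of 12 members (83.3%) were higher, against 67% of all listed genes. The median log2 ratio was 0.62 over members and 0.58 over all listed genes. Set against that median, 7 members were higher and 5 lower, so most of the upward lean was shared with the other genes of the table.

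SEMA3B, a secreted semaphorin known as a tumour suppressor gene of a region often lost in lung cancer, was the most abundant semaphorin, with 32.2 FPKM in extravasated against 19.3 FPKM in parental HMPOS cells. SEMA4B followed with 13.3 FPKM against 8.68 FPKM. The 7 semaphorins summed to 65.5 FPKM in extravasated against 40.7 FPKM in parental cells, a ratio of 1.61, and their median log2 ratio of 0.73 stood 0.15 above that of all listed genes. SEMA3D was at 1.29 FPKM against 0.714 FPKM, and the remaining SEMA3F and SEMA4C lay below 10 FPKM with ratios near the median of all listed genes.

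The semaphorins with the greatest ratios were the faintest. SEMA5B, a transmembrane semaphorin with thrombospondin repeats, was at 0.944 FPKM in extravasated against 0.264 FPKM in parental HMPOS cells, 3.58-fold higher. SEMA7A, a lipid-anchored semaphorin that signals through plexin C1 and integrins, was at 0.874 FPKM against 0.261 FPKM, 3.35-fold higher. All 4 of these values were below 1 FPKM, and with 1 FPKM added to both groups neither gene passed 2-fold. SLIT2, the Slit ligand listed here, was at 2.16 FPKM against 1.41 FPKM. Thus 8 of 8 ligands were higher, where 67% of all listed genes were, before the ratios were set against the median.

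The receptors in HMPOS cells were led by NRP2, at 46.8 FPKM in extravasated against 32.7 FPKM in parental cells, 1.43-fold higher, a direction that turned to a log2 ratio of -0.07 against the median of all listed genes. PLXNA2 was at 13.9 FPKM against 8.44 FPKM, 1.65-fold higher. ROBO2, a Slit receptor, was at 0.103 FPKM in extravasated against 0.848 FPKM in parental cells, 8.21-fold lower. It ranked 6th among 390 lower genes, with genes at 0 in a group left out of the ranking. With 1 FPKM added to both groups its log2 ratio was -0.74, short of 2-fold. The gene lies at chr31:9414709-9590959 of the CanFam3.1 dog genome, and no other gene with a start within 2 Mb was listed in this table.

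SLITRK5, which encodes a leucine-rich synaptic adhesion protein that binds receptor tyrosine phosphatases and resembles Slit in its extracellular repeats, had the greatest ratio of any member in HMPOS cells. Its level was 0.0741 FPKM in extravasated against 1.09 FPKM in parental HMPOS cells, 14.7-fold lower. SLITRK5 ranked 2nd among 390 lower genes, with genes at 0 in a group left out of the ranking. The gene lies at chr22:39384665-39387542, again without another listed gene that starts within 2 Mb. SLITRK5 was listed in neither of the other tables, nor was any other Slitrk gene. Its level was low even in parental cells, and with 1 FPKM added to both groups the difference no longer passed 2-fold.

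**Figure D3:**
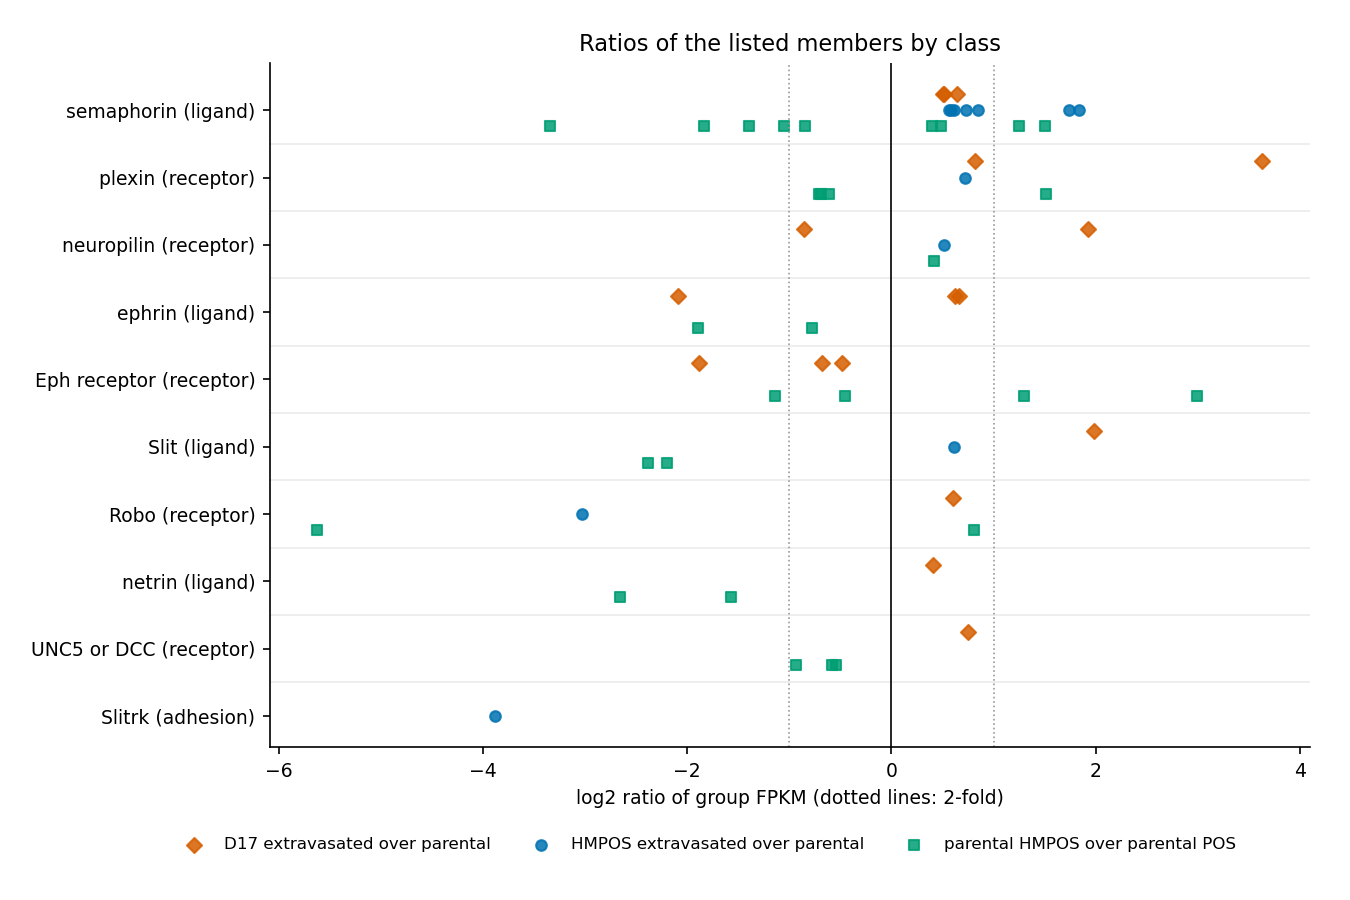
Log2 ratio of group FPKM for each listed member, by class and table (diamonds, D17 extravasated over parental; circles, HMPOS extravasated over parental; squares, parental HMPOS over parental POS). Semaphorins of both extravasated lines lie right of 0, although 2 of the 7 in HMPOS, with NRP2, fall just below it when set against the median of all listed genes; both Slits of HMPOS against POS lie left of -2.

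Only 3 members were listed in both extravasation tables, which share no library: NRP2, PLXNA2 and SEMA4B. All 3 were higher in extravasated cells of both lines, and against the median of all listed genes NRP2 kept that direction in D17 alone. Among all symbols listed in both tables, 381 of 613 (62.15%) were higher in both, 153 were lower in both, and 46 and 33 went opposite ways. PLXNA2 differed most between lines in level: 0.104 FPKM in parental D17 and 8.44 FPKM in parental HMPOS cells, although the tables were normalized separately. No member passed 2-fold in both lines.

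Parental HMPOS cells were compared with the parental POS cells they came from, a comparison between a strongly metastatic line and its source. Here 11 of 29 members were lower past 2-fold in HMPOS cells, led by ROBO1, SEMA3A, NTN5, SLIT2 and SLIT3, and 5 were higher, led by EPHA5. The 11 lower members are 37.9% of those listed, against 19.1% of all listed genes, and the 5 higher ones are 17.2%, against 8.49%. At any fold, 9 members (31%) were higher in HMPOS, against 47.7% of all listed genes, and 20 were lower. The median size of the log2 ratio was 1.14 for members and 0.66 for all listed genes, and the signed medians were -0.71 and -0.31. No member changed direction against the median of all listed genes.

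ROBO1 had the greatest ratio of any member in this table. It was at 0.279 FPKM in HMPOS against 13.8 FPKM in POS cells, 49.4-fold lower. ROBO1 ranked 31st among 2990 lower genes, with genes at 0 in a group left out of the ranking. It lies at chr31:8082560-8595381, at lower coordinates than ROBO2, which was 1.75-fold higher in HMPOS cells but at only 0.847 FPKM against 0.484 FPKM. ROBO1 therefore made up most of the summed Robo level of 14.2 FPKM in POS cells and little of the 1.13 FPKM in HMPOS cells.

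Both listed Slit ligands were lower alongside ROBO1. SLIT3 was at 9.50 FPKM in HMPOS against 43.6 FPKM in POS cells, 4.59-fold lower. SLIT2 was at 1.41 FPKM against 7.34 FPKM, 5.22-fold lower. POS cells thus held ligand and receptor of this pathway at higher levels, 50.9 FPKM of summed Slit against 10.9 FPKM in HMPOS cells.

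Netrins were lower in HMPOS cells. NTN4 was at 1.29 FPKM in HMPOS against 3.86 FPKM in POS cells, 2.98-fold lower, and NTN5, a little-studied netrin, was at 0.111 FPKM against 0.702 FPKM, 6.31-fold lower. The listed genes of the UNC5 class differed less. UNC5A, UNC5B and UNC5C, which mediate repulsion by netrins and act as dependence receptors in cell survival, were all lower in HMPOS cells with folds from 1.46 to 1.91. UNC5B was the most abundant member of this table at 47.6 FPKM against 69.4 FPKM, and UNC5C was at 19.9 FPKM against 29.8 FPKM, while UNC5A was nearer the level of NTN4 at 3.26 FPKM against 6.21 FPKM.

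Semaphorins divided, with 4 of 9 higher and 5 lower in HMPOS cells. SEMA3A, the secreted semaphorin that repels axons and protects bone, was at 0.576 FPKM in HMPOS against 5.86 FPKM in POS cells, 10.2-fold lower. SEMA3D was at 0.714 FPKM against 2.55 FPKM, 3.57-fold lower, and SEMA5B at 0.264 FPKM against 0.693 FPKM, 2.63-fold lower. SEMA6B, a transmembrane semaphorin, just passed the limit at 2.76 FPKM against 5.75 FPKM, and fell short of it when set against the median of all listed genes. SEMA4D, the ligand of plexin B1, was 1.79-fold lower.

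In the opposite direction, SEMA3B was at 19.3 FPKM in HMPOS against 6.79 FPKM in POS cells, 2.85-fold higher. SEMA4A, a transmembrane semaphorin also found on immune cells, was at 2.91 FPKM against 1.22 FPKM, 2.38-fold higher. SEMA3C, a secreted semaphorin, was at 17.6 FPKM against 12.6 FPKM, and SEMA4B had a fold of 1.32. The sum over the 9 semaphorins was 55.2 FPKM in HMPOS against 46.3 FPKM in POS cells, so the summed level differed little while single genes differed up to 10.2-fold. The median log2 ratio of the 9 was -0.84, against -0.31 for all listed genes.

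Plexins were lower in HMPOS cells apart from PLXNC1. PLXNB2, a receptor of class 4 semaphorins, was the most abundant plexin at 43.9 FPKM in HMPOS against 67.2 FPKM in POS cells. PLXNC1, the semaphorin 7A receptor, was at 2.62 FPKM against 0.919 FPKM, 2.85-fold higher. PLXNA1 and PLXNA2 had folds of 1.62 and 1.63, and PLXNA2 was at 8.43 FPKM against 13.8 FPKM. NRP1, the one neuropilin listed here, was at 29.0 FPKM in HMPOS against 21.7 FPKM in POS cells.

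Both listed ephrins were lower in HMPOS cells, and the Eph receptors split 2 to 2. EFNB2 was at 2.79 FPKM in HMPOS against 10.3 FPKM in POS cells, 3.71-fold lower, and the more abundant EFNB1 was at 15.0 FPKM against 25.9 FPKM. EPHA5, a receptor of ephrin-A ligands best known from the brain, was at 7.67 FPKM against 0.967 FPKM, 7.94-fold higher. It ranked 62nd among 2728 higher genes, with genes at 0 in a group left out of the ranking. EPHB3, a receptor of ephrin-B ligands, was at 9.65 FPKM against 3.92 FPKM, 2.46-fold higher.

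The remaining Eph receptors were lower in HMPOS cells. EPHA2 had the highest level of the class at 24.1 FPKM in HMPOS against 32.9 FPKM in POS cells. EPHB6, which lacks kinase activity, was at 0.700 FPKM against 1.54 FPKM, 2.20-fold lower, and did not pass 2-fold against the median of all listed genes. Summed over the class, Eph receptors came to 42.1 FPKM in HMPOS against 39.3 FPKM in POS cells, while the 2 ephrins came to 17.8 FPKM and 36.2 FPKM.

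By role, more ligands than receptors were lower past 2-fold in HMPOS against POS cells. Of 15 ligands, 11 were lower and 9 of these past 2-fold, where 19.1% of all listed genes were, with a median log2 ratio of -1.39. Of 14 receptors, 9 were lower and 2 of these past 2-fold, with a median of -0.56. In extravasated D17 cells, where 54.2% of all listed genes were higher, 1 of 8 ligands and 4 of 9 receptors were lower, with medians of 0.56 and 0.60. In extravasated HMPOS cells, where 67% were higher, 0 of 8 ligands and 1 of 3 receptors were lower, with medians of 0.67 and 0.51, although the ligands SEMA3F and SEMA4C and the receptor NRP2 turned lower against the median of all listed genes. The difference between roles was not tested.

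**Figure D4:**
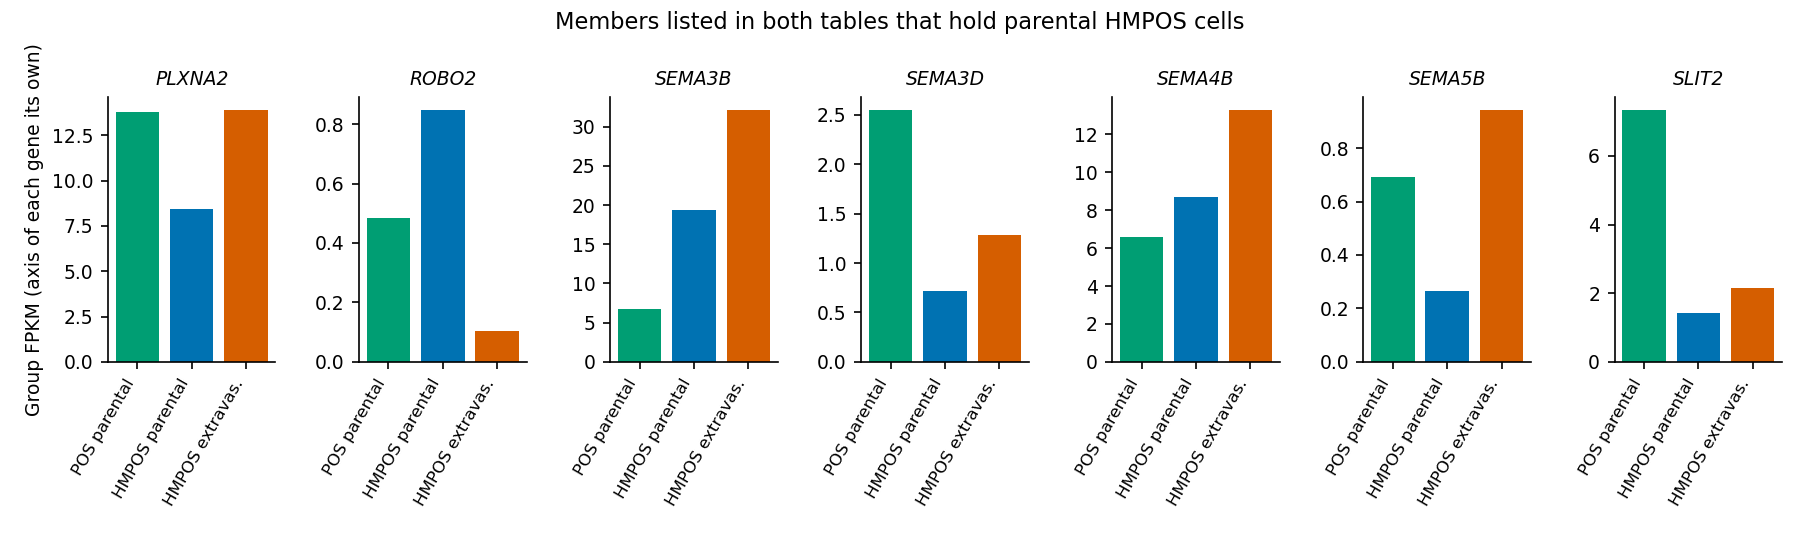
Group FPKM, on a linear axis from 0 scaled for each gene, of the 7 members listed in both tables that hold parental HMPOS cells (green, parental POS; blue, parental HMPOS; orange, extravasated HMPOS). With norm read as parental, SEMA3B and SEMA4B step up from POS to extravasated HMPOS cells, PLXNA2, SEMA3D, SEMA5B and SLIT2 are lowest in parental HMPOS cells, and ROBO2 is highest there.

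The comparisons of HMPOS with POS and of extravasated with parental HMPOS cells share the parental HMPOS libraries, so their ratios are not independent, and 7 members stood in both tables. The tables were normalized separately, but the parental HMPOS values of these 7 members differed between them by at most 0.002 on the log2 scale. Levels in POS, parental HMPOS and extravasated HMPOS cells were 13.8, 8.44 and 13.9 FPKM for PLXNA2. Those of SEMA5B were 0.693, 0.264 and 0.944 FPKM, again lowest in the parental HMPOS cells. ROBO2 had the reverse shape with 0.484, 0.848 and 0.103 FPKM.

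In SLIT2, SEMA3D, SEMA3B and SEMA4B the POS cells held the highest or lowest level. SLIT2 was at 7.34, 1.41 and 2.16 FPKM in the same order, and SEMA3D at 2.55, 0.714 and 1.29 FPKM, both lowest in the parental HMPOS cells. SEMA3B was at 6.79, 19.3 and 32.2 FPKM, and SEMA4B at 6.58, 8.68 and 13.3 FPKM. With norm read as parental, extravasated HMPOS cells were farther from POS than parental HMPOS cells were in SEMA3B and SEMA4B, and nearer to it in SLIT2 and SEMA3D; with the names exchanged, these orders would turn.

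Members were faint relative to the other listed genes. The median of the higher group value was 6.29 FPKM for members and 19.45 FPKM for all listed genes in D17, 4.78 and 13.5 FPKM in HMPOS, and 8.68 and 20.9 FPKM in HMPOS against POS. A value below 1 FPKM in at least 1 group was held by 4 of 17, 5 of 12 and 9 of 29 members, 23.53%, 41.67% and 31.03%, against 9.451%, 15.98% and 10.88% of all listed genes. No member was listed at 0 in any group. The largest ratios, those of ROBO1, SLITRK5, PLXNA2, SEMA3A and ROBO2, all had a lower value under 1 FPKM, and the precision of such low values is unknown. With 1 FPKM added to both groups, EPHB6, NTN5, PLXNC1, SEMA4A, SEMA5B and SEMA6B no longer passed 2-fold in HMPOS against POS.

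The position of SEMA3B was chosen for a closer look after its values were seen. It lies at chr20:39059244-39066055, and 47 other genes with a start within 2 Mb were listed in HMPOS against POS. Of these, 44 were lower in HMPOS cells, where 47.7% of all listed genes were higher. The median log2 ratio was -0.53 over the 47 and -0.31 over all listed genes, while SEMA3B stood at 1.51. The 3 higher neighbours, NT5DC2, TRAIP and IMPDH2, had log2 ratios between 0.29 and 0.40. In extravasated against parental HMPOS cells, 6 of 6 listed neighbours were higher, SEMA3F, whose gene starts 0.0773 Mb away, and the tumour suppressor gene RASSF1 among them, where 67% of all listed genes were higher.

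**Figure D5:**
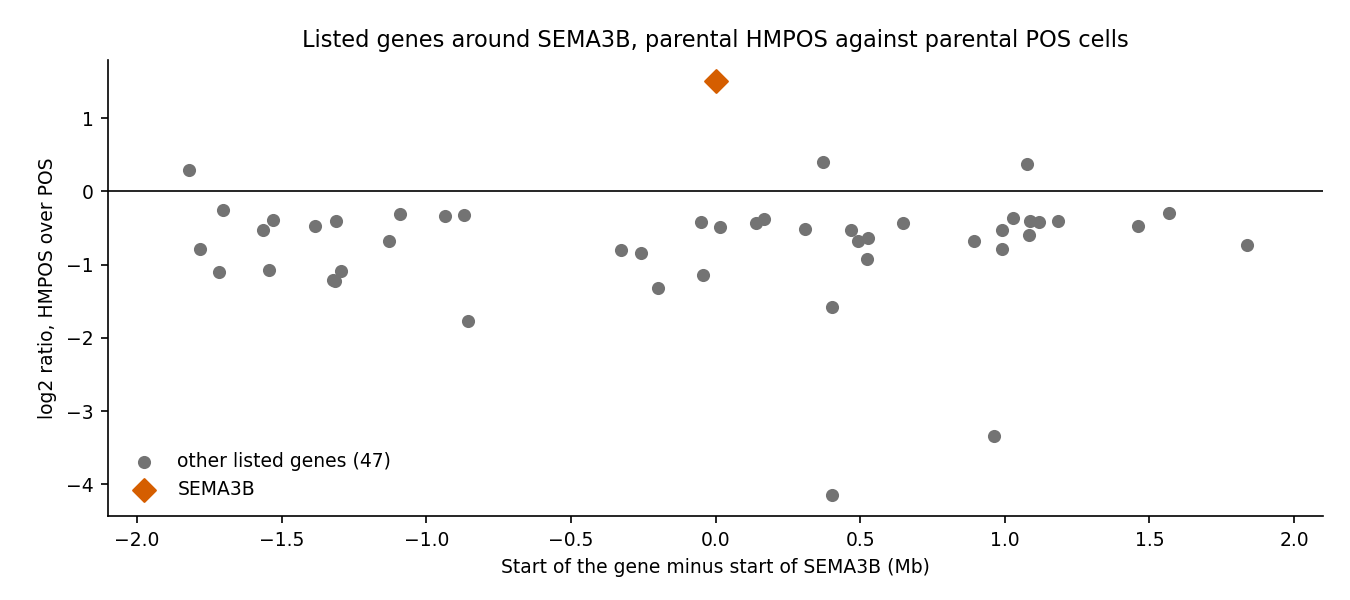
Log2 ratio of group FPKM, parental HMPOS over parental POS cells, of the listed genes within 2 Mb of SEMA3B, by the distance of their starts from its start in Mb. SEMA3B (diamond) stands at 1.51, above all 47 neighbours (circles), 44 of which lie below 0.

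Across all members, listed neighbours went with and against their member. In D17, 15 members had listed neighbours, and most of these shared the direction of the member for 6, opposed it for 7 and split evenly for 2. The same counts were 6, 1 and 1 of 8 in HMPOS, and 13, 9 and 6 of 28 in HMPOS against POS. The HMPOS counts stand where 67% of all listed genes were higher. They include SEMA3B and SEMA3F, which start 0.0773 Mb apart and share neighbours, so these members are not separate cases. The following were picked after their values were seen. In HMPOS against POS, where 47.7% of all listed genes were higher, 10 of 10 listed neighbours of EPHA2 and 13 of 13 of PLXNB2 were lower in HMPOS cells, as these members were, and 24 of 29 around EPHB3 were higher, as EPHB3 was. Around SEMA5B, 7 of 7 were higher in extravasated HMPOS cells, where 67% of all listed genes were, as SEMA5B was, but 13 of 19 were higher in HMPOS against POS, where SEMA5B was lower. Members that differed from most of their neighbours included, in D17, where 54.2% of all listed genes were higher, SLIT3 with 4 of 4 lower, EFNB2 with 3 of 3 higher and EPHB4 with 19 of 27 higher, and also NTN4 in HMPOS against POS, with 8 of 10 higher. No listed gene overlapped the span of a member.

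Partners of the pathway, a list of 89 co-receptors, further ligands, cytoplasmic effectors and proteases, were counted in the same way. In D17 32 were listed, 36% against 19.98% of all symbols. Of these, 23 were higher and 9 lower in extravasated cells, and the median of their log2 ratios was 0.57. The higher ones are 71.9%, against 54.2% of all listed genes. Past 2-fold, 4 were higher (12.5%) and 1 was lower (3.12%), below the 18.3% and 8.5% of all listed genes. CNTN1, a contactin of the axon surface, was at 4.39 FPKM against 0.565 FPKM, 7.77-fold higher. FLRT3, a membrane protein that binds UNC5 and Robo receptors, was at 41.9 FPKM against 13.4 FPKM, 3.14-fold higher. Its relative FLRT2 was lower, 2.08 FPKM against 4.99 FPKM.

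FES, a tyrosine kinase downstream of plexins, was at 1.24 FPKM in extravasated against 0.436 FPKM in parental D17 cells. In HMPOS cells 11 partners were listed, 12.4% against 5.374% of all symbols. Of these, 6 were higher and 5 lower. None passed 2-fold, where 20.5% of all listed genes were higher and 4.79% lower past that limit. The partners thus split nearly evenly in a table where 67% of all listed genes were higher.

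In HMPOS against POS, 46 partners were listed, 51.7% against 25.94% of all symbols. Of these, 19 were higher (41.3%, against 47.7% of all listed genes) and 27 lower in HMPOS cells. Past 2-fold, 7 were higher, 15.2% against 8.49% of all listed genes, and 10 were lower, 21.7% against 19.1%. PTPRD, a receptor tyrosine phosphatase that binds Slitrk proteins, was at 0.0116 FPKM in HMPOS against 6.73 FPKM in POS cells, 581-fold lower. The size of this fold depends on the very low HMPOS value, whose precision is unknown. CNTN2, a contactin, was at 2.29 FPKM against 14.9 FPKM, and DRAXIN, a secreted ligand of netrin receptors, at 0.378 FPKM against 1.45 FPKM. FLRT2, a repulsive ligand of UNC5 receptors, was higher, 2.61 FPKM against 0.402 FPKM.

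CXCR4, the chemokine receptor for CXCL12, was at 3.00 FPKM in HMPOS against 0.887 FPKM in POS cells, 3.38-fold higher. Partners thus stood on both sides, as the members did.

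Some markers of the osteoblast lineage, such as SPARC and COL1A1, were present at high levels in these bone tumour lines, while PHEX was below 1 FPKM in every table. In D17 cells 7 of 15 (46.7%, against 19.98% of all symbols) were listed and 6 (85.7%, against 54.2% of all listed genes) had higher extravasated values, with a summed level of 2242 against 931.4 FPKM and COL1A2, the most abundant, at 1359.7 against 493.4 FPKM. In HMPOS cells 6 were listed (40%, against 5.374% of all symbols) and 5 (83.3%, against 67%) were higher. Their sum was 3125 against 1923 FPKM, with SPARC at 2896.8 against 1776.7 FPKM, while IBSP, bone sialoprotein, was lower at 0.427 against 2.05 FPKM. In HMPOS against POS 10 were listed (66.7%, against 25.94% of all symbols), and 3 (30%, against 47.7%) were higher and 7 lower. Their sum was 2156 against 5641 FPKM, with SPARC at 1774.9 against 4439.2 FPKM and BGLAP, osteocalcin, at 27.3 against 676.3 FPKM. The part of these markers in the members' values was not tested.

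Of 14 nerve cell markers, 3 (21.4%) were listed in D17, near the 19.98% of all symbols, and they went both ways. GAP43 made up most of their sum of 150 FPKM in extravasated against 44.1 FPKM in parental cells, and this growth cone protein was at 140.6 against 32.5 FPKM. SNAP25 was at 2.06 against 0.362 FPKM, and MAP2 was lower at 7.39 against 11.3 FPKM. In HMPOS cells SLITRK5, itself on the list, was the only marker listed (7.14%, against 5.374% of all symbols). In HMPOS against POS 14.3% were listed, against 25.94% of all symbols. In HMPOS against POS, GAP43 was at 7.15 against 26.1 FPKM, and SNAP25 was listed at 0 in HMPOS and at 1.96 FPKM in POS cells, 7.15 against 28.1 FPKM in sum.

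Few markers of other cell types were listed. Of 11 endothelial markers, ERG was at 10.4 FPKM in extravasated against 6.13 FPKM in parental D17 cells, none was listed in HMPOS, and FLI1 and KDR, 0.183 FPKM in sum in HMPOS against 3.02 FPKM in POS cells, were lower in HMPOS against POS. Of 7 Schwann cell and glial markers, ERBB3 was at 2.56 against 0.732 FPKM in D17 and at 1.11 against 3.37 FPKM in HMPOS against POS, and none was listed in HMPOS.

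Of 6 epithelial markers, CDH1 was at 1.47 against 0.0783 FPKM and EPCAM at 1.72 against 0.431 FPKM in D17, 3.19 against 0.510 FPKM in sum. CDH1 alone was listed in the other tables, at 3.04 against 1.49 FPKM in HMPOS and 1.49 against 4.30 FPKM in HMPOS against POS. The epithelial list thus stood at 33.3% in D17, against 19.98% of all symbols, and at 16.7% in HMPOS, against 5.374%. In HMPOS against POS it stood at 16.7%, against 25.94%. These shares rest on 2, 1 and 1 genes. None of 6 macrophage markers was listed in any table. Whether cells of these types contributed was not tested.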

How the data were processed

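Total RNA of the cell lines was sequenced after poly(A) selection. Per the submitters' processing notes, reads were trimmed with Trimmomatic 0.38 and passed through TopHat2, Cufflinks and Cuffdiff on CanFam3.1, whereas the article's methods name STAR, voom and limma; the table columns are those of Cuffdiff. The kits also differ, miRNeasy and TruSeq Stranded mRNA in the article and RNeasy and NEBNext Ultra Directional in the sample records, and whether counting used the strand is not given in the sources used here. The authors deposited the FPKM of each group, 1 value pooled over 3 libraries, for genes marked significant alone. The tables also hold the authors' own comparisons (log2 fold changes, test statistics, p-values and q-values), which were not used; their fold change is the second group over the first, parental over extravasated or POS over HMPOS by the column names, and so has the opposite sign to the ratios given here. Columns that hold a single library numbered 0.

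Depth and the spread between libraries are unknown, so no test, SD or interval was made. From the group values, ratios and log2 ratios were computed without a pseudocount or a filter on low values, extravasated over parental and HMPOS over POS, and counted past 2-fold in each direction beside all listed genes. The alternatives were a fold of 1.5, no fold limit, a higher value of at least 1 FPKM, a pseudocount of 0.1 or 1, and ratios centred on the median of all listed genes. Group values were printed for members past 2-fold in any table, those listed in both extravasation tables or all 3, SLITRK5 and the most abundant member of each class; of the partners, up to 6 past 2-fold per table with at least 1 FPKM, and of each marker list up to 3 genes with the highest value. Some partners that this rule names are not reported here. Members, lists and rules were chosen with earlier results of these data known.

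Coordinates are those of the tables, and whether starts count from 0 is not given in the sources used here. Symbols were matched to the RefSeq annotation of UU_Cfam_GSD_1.0 for names alone, under which 77 member symbols were found; names that had become calendar dates in a spreadsheet were left aside. Calculations ran in Python 3.11.15 with numpy 2.4.6, pandas 2.3.3 and matplotlib 3.10.9, and were checked on simulated data.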

Additional observations from a re-analysis of the deposited data

How the results depend on the processing

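No paired analysis was possible because each group has 1 pooled value, although the labels number its libraries; leaving out a library was not possible for the same reason. Counts past 2-fold moved with the fold limit. In D17 the 3 higher members became 9 at 1.5-fold and 12 at any fold, and the 2 lower became 4 and 5. In HMPOS the 2 higher became 7 and 10. In HMPOS against POS the 5 higher became 9 at any fold, and the 11 lower became 17 and 20. With at least 1 FPKM in the higher group, 1 lower member was left in D17, and 0 higher and 1 lower in HMPOS, since the others are faint. With a pseudocount of 1, 0 lower members were left in D17, 0 higher and 0 lower in HMPOS, and 3 higher and 7 lower in HMPOS against POS. Centred ratios gave 4 lower members in D17. In HMPOS against POS they gave 6 higher and 9 lower, since ROBO2 passed the limit and EPHB6 and SEMA6B fell short of it.

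The median log2 ratio kept its sign under each alternative. In D17 it was 0.60 at first, 0.58 and 0.41 with pseudocounts of 0.1 and 1, and 0.22 centred. In HMPOS it was 0.62 at first, then 0.60, 0.50 and 0.031. In HMPOS against POS it was -0.71 at first, -0.70 with at least 1 FPKM, -0.70 and -0.60 with the pseudocounts, and -0.40 centred. Of 58 single ratios, 3 reversed when centred, all in HMPOS: NRP2 at -0.070, SEMA3F at -0.018 and SEMA4C at -0.0013. The 3 members higher in both extravasated lines became 0 with 2-fold asked of both. Why ratios shift together in a table was not tested.

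Limits remain beyond these settings. Pooled values carry no spread, so a difference due to 1 library cannot be seen, and without depth the precision of values below 1 FPKM is unknown. Counts rest on genes that had passed the authors' test, and a member left out of a table has no value here. The tables were normalized separately.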

Other observations

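Levels of some members differed more between the lines than between extravasated and parental cells of a line, with the reservation that the tables were normalized separately; these genes were chosen after their values were seen. ROBO1 was at 46.4 FPKM in parental D17, 13.8 FPKM in POS and 0.279 FPKM in parental HMPOS cells, and was 1.52-fold higher in extravasated than in parental D17 cells. The netrin receptor gene UNC5B was instead lowest in D17, with 0.272 FPKM in parental D17 against 69.4 FPKM in POS and 47.6 FPKM in parental HMPOS cells. NRP1 was at 130.8 FPKM in parental D17 and at 21.7 and 29.0 FPKM in POS and parental HMPOS cells. NTN4, which binds laminin in basement membranes, was at 11.2 FPKM in parental D17 and 3.86 and 1.29 FPKM in POS and parental HMPOS cells.

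The class 3 semaphorin genes SEMA3C, SEMA3A and SEMA3D lie on the same stretch of chromosome 18, from chr18:20457609-20635275 to chr18:24258133-24429758, and were not alike in HMPOS against POS cells. SEMA3C was at 17.6 FPKM in HMPOS against 12.6 FPKM in POS cells, while SEMA3A was 10.2-fold and SEMA3D 3.57-fold lower. SEMA3D was in turn 1.80-fold higher in extravasated than in parental HMPOS cells, a comparison that shares the parental HMPOS libraries with the former.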
